A study of Mus musculus with 12 samples.

Results

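The integrin genes Itga2b, Itga4, Itga5, Itga6, Itgal, Itgam, Itgb1, Itgb2, Itgb3 and Itgb7 encode alpha and beta chains with which stem cells, myeloid cells and megakaryocytes adhere in the bone marrow. They were chosen by name, taking every probe other than controls that the array files assign to one of them. This gave 25 probes of 56605 on the array, and 10 of the 33191 genes tested. All 25 probes passed the filter on dim probes, which asked for signal well above background on 3 or more of the 12 arrays. Each gene was represented by its brightest probe, and for all 10 genes that probe was well above background on every array.

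An integrin is a pair of 1 alpha and 1 beta chain that spans the membrane, binds a ligand of the matrix or of a neighbouring cell, and holds it more tightly when talin and kindlin bind the tail of the beta chain inside the cell. The chemokine CXCL12, made by marrow stroma, acts through its receptor CXCR4 on this step, and integrins and CXCR4 together keep stem cells in the marrow. Alpha4beta1 binds the vascular adhesion molecule Vcam1, alpha5beta1 binds fibronectin, alpha6beta1 binds laminins, and alpha4beta7 binds the gut addressin Madcam1. The beta2 integrins alphaLbeta2 and alphaMbeta2 bind the Icam family on leukocytes and endothelium, and alphaIIbbeta3 is the fibrinogen receptor of platelets.

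Gene expression was measured in stem cells of male mice, sorted by flow cytometry as Kit and Sca-1 positive, lineage-negative cells with SLAM markers after enrichment of the marrow for Kit. There were 4 groups of 3 separately numbered mice, with 1 single-colour array per mouse. The controls had a sham operation. The POL5551 group received this CXCR4 antagonist by continuous infusion at 100 mg/kg per day for 2 weeks. The other 2 groups received injections of G-CSF, a cytokine used clinically to mobilize stem cells, at 100 ug/kg per injection and an interval of 12 h, in 4 doses over 2 days or 9 doses over 5 days. The labels name no operation for the G-CSF mice and no injections for the sham mice, and strain and age are not named in the labels. In sorted populations of this kind, fewer cells of a type and less RNA per cell cannot be told apart.

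Levels are log2 signal relative to the array's 75th percentile, so a level of 0 lies at that percentile, and differences are differences of these levels with limma's standard error (SE). Precision is limited by having 3 arrays per group. Signal at the 75th percentile lay between 1638 and 5579, and 75.3% to 85.6% of probes were well above background. All 10 sort and stem cell markers examined were tested. Kit lay between 2.61 and 3.22 on all 12 arrays and Hlf between 3.37 and 4.21, while Slamf1 was well above background on 11. The 10 as a list varied more. Their summed signal, in units of the array's 75th percentile, ran from 27.2 to 46 in sham and from 43 to 44.8 after POL5551. After 2 days of G-CSF it ran from 27.4 to 35.2, and after 5 days from 32.4 to 36.2. Sham mouse 1 stood apart, with a rank correlation across genes of 0.783 and 0.788 with the other sham mice against 0.936 between those 2. Olfactory, vomeronasal, taste and keratin-associated probes, which blood cells do not use, had a median level of -1.60 on that array. On the other sham arrays it was -3.30 and -3.45, after POL5551 -5.17 to -4.10, after 2 days of G-CSF -2.72 to -2.40 and after 5 days -3.97 to -3.24. The 3 arrays of the 2-day group shared a slide that held no other group, so that group and its slide cannot be told apart. The 5-day arrays lay on 3 other slides. That of mouse 2 shared its slide with POL5551 mouse 3, and those of mice 1 and 3 with no other array here. No 5-day array shared a slide with sham, so differences between these 2 groups are also differences between slides.

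The probes themselves bear on what is read as each gene. Positions are those of the array design on mouse build mm9, sequences are printed 5′ to 3′ as they stand in the deposited files, in the sense of the transcript, and no annotation of this build was used. Probes of 60 bases whose span in the genome exceeds their length by more than a few bases were taken to cross an exon junction. The smallest such span among the integrin probes was 151 bases. The following pair was chosen because its probes are designed on 2 forms of the Itgb1 tail. The first lies at chr8:131250081-131255976 (plus strand) on the transcript NM_010578, and the second at chr8:131250931-131255949 (plus strand) on an mRNA that the array files name integrin beta1D, a splice form known from striated muscle. Capitals mark the 23 bases that both share. Both probes end in the same stretch of the genome, so only the bases before the capitals set the first apart. It may therefore also bind the beta1D mRNA, and the pair does not separate the 2 forms.
Itgb1 usual tail: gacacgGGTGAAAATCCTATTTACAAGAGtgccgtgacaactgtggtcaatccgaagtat
Itgb1 beta1D tail: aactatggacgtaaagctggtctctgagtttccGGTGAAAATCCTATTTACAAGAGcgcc

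The probe of the usual tail was well above background on all 12 arrays, with levels from 0.51 to 0.75 in sham, 0.33 to 2.78 after POL5551, -0.09 to 0.52 after 2 days of G-CSF and 0.24 to 2.31 after 5 days. The beta1D probe was well above background on 10 arrays, at -5.23 to -3.17 in sham and at most -1.50 on any array. Because levels of different probes are not on a common scale, and the probe of the usual tail may bind both forms, this does not give their ratio.

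The brightest Itgam probe carries a run of 10 CA units at its start, shown in capitals, and is placed at chr7:135261755-135261814 (plus strand). The other Itgam probe, at chr7:135212140-135212199 (plus strand), starts at base 270 of the transcript NM_008401 and has no such run. The first 30 bases of the former and all 60 of the latter are given because the rule of the brightest probe chose between them.
Itgam repeat probe: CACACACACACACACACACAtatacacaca
Itgam other probe: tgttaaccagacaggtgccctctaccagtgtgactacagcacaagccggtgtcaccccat

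Over the whole array, 111 of 56605 probes (0.196%) hold at least 8 CA units in a row or the same run on the other strand, TG. Their median level was 6.78, against -1.90 over all probes, and all of them were well above background on all 12 arrays, against 61.5% of all probes. They made up 51 of the 100 brightest probes, and the Itgam repeat probe ranked 38 by level. It is the only one of the 25 integrin probes with the run. Levels of Itgam are therefore given for both of its probes below.

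The beta2 chain Itgb2, shared by the leukocyte integrins, differed most among the 10 genes. Its single probe lies at chr10:77027978-77028037 (plus strand) on NM_008404, 2420 bases into the transcript, and begins with these 30 bases.
Itgb2 probe: aaagctagagcatgagttatcataatcaag

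Itgb2 stood at 1.18, 1.60 and 2.03 in sham mice 1 to 3, at 3.55, 2.54 and 3.10 after POL5551, at 0.38, 1.02 and 0.35 after 2 days of G-CSF, and at 1.98, 2.36 and 1.79 after 5 days. The POL5551 mice all lay above every mouse of the other groups, and the 2-day mice all lay below them. Itgb2 was the only one of the 10 genes to pass limma's F test over the 4 groups (adjusted p = 0.0383), a test that 1.35% of all genes passed. Leaving out single arrays moved that adjusted p between 0.0172 and 0.132, and it was lost without any 1 of the POL5551 or 2-day G-CSF arrays and without mouse 1 or 2 of the 5-day group.

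Against 2 days of G-CSF, Itgb2 was 2.48 higher after POL5551 (SE 0.369, adjusted p = 0.0105). The difference stayed between 2.24 and 2.74 when single arrays were left out, and its adjusted p exceeded 0.05 only without the first 2-day mouse (0.0537). With the level of the probes not used in blood as a covariate it was 1.59 (adjusted p = 0.499), and under that covariate no gene on the array was called in this comparison. Against sham it was 1.46 higher after POL5551 (SE 0.369, adjusted p = 0.0593), which missed the threshold with limma over all genes, and 1.25 without sham mouse 1 (adjusted p = 0.165). On the first slide, which held sham mouse 1 and POL5551 mouse 1, the difference was 2.38, and on the second, between POL5551 mouse 2 and the mean of sham mice 2 and 3, it was 0.73.

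After 2 days of G-CSF Itgb2 was 1.02 lower than in sham (SE 0.369, adjusted p = 0.469) and after 5 days 0.44 higher (SE 0.369, adjusted p = 0.64), neither of which passed. The 5-day group was 1.46 above the 2-day group without overlap (SE 0.369, adjusted p = 0.25). The comparisons with sham share their 3 control arrays.

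The alpha chains that pair with beta2 did not follow it. Itgal, the alphaL chain, stood at 0.67, -0.74 and 0.11 in sham, at -0.69, -1.13 and -0.63 after POL5551, at -0.17, -0.33 and 0.50 after 2 days of G-CSF, and at -0.31, -0.51 and -0.14 after 5 days. Of the 9 treated mice, all but POL5551 mouse 2 lay within the sham range. The sham mice differed among themselves as much as the groups did. The difference between POL5551 and sham was -0.83 (SE 0.392, adjusted p = 0.151, -0.50 without sham mouse 1), and -0.82 against 2 days of G-CSF (SE 0.392, adjusted p = 0.115), where the groups did not overlap.

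Itgal has 2 more probes, designed on a dendritic cell cDNA clone and lying at chr7:134474706-134474766 and chr7:134474711-134474767. They share 56 of their 60 bases, yet the first was well above background on all 12 arrays and the second on 7. In a fit of every tested probe on its own, which called 23.5% of probes in this comparison, both were lower after POL5551 than after 2 days of G-CSF, by -2.49 (adjusted p = 0.0255) and -3.34 (adjusted p = 0.042). On none of the POL5551 arrays was the second well above background, so its difference rests on values near background there. With the mean over all tested probes of a gene, which takes in this dim probe, Itgal was called in this comparison. All 3 Itgal probes lay below sham after POL5551 in mean, by -0.83 to -1.95, with none called where 1.41% of probes were.

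Itgam, the alphaM chain of Mac-1, stood on its repeat probe at 8.08, 6.75 and 7.32 in sham, at 6.78, 6.78 and 6.84 after POL5551, at 7.36, 6.94 and 7.60 after 2 days of G-CSF, and at 6.39, 6.69 and 7.74 after 5 days. Sham and 5-day mice spread over more than a log2 unit, while the POL5551 mice lay close together. The difference between POL5551 and sham was -0.59 (SE 0.428, adjusted p = 0.301) and its sign turned to 0.01 with quantile normalization. It was -0.24 without sham mouse 1 and -0.90 without sham mouse 2. On the probe without the run the sham mice averaged 0.34 ± 0.78 (SD, n = 3), the POL5551 mice -0.43 ± 0.08, the 2-day mice 0.27 ± 0.30 and the 5-day mice 0.44 ± 0.28, and the difference between POL5551 and sham was -0.77 (SE 0.393, adjusted p = 0.187). Neither probe gave a call in any comparison.

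Markers of mature myeloid cells were read beside the beta2 family. All 14 neutrophil genes listed were tested. Their summed signal, in units of the array's 75th percentile, ran from 5.11 to 11.6 in sham, from 6.78 to 15.8 after POL5551, from 6.22 to 11.4 after 2 days of G-CSF and from 9.6 to 13.7 after 5 days. Between POL5551 and 2 days of G-CSF 1 of the 14 was called, lower, where 24.7% of all genes were called lower. For 11 of 12 macrophage genes the sums ran from 18.4 to 34, 16.9 to 21.3, 21.8 to 26.6 and 15.6 to 25.6 in the same order. Of these 11, 1 lay above 0 between POL5551 and 2 days of G-CSF, and the median of -0.39 compares with -0.65 for all genes. In that comparison, which called 30.6% of all genes, 1 of the 11, Siglec1, was called lower (-1.07, adjusted p = 0.0231). The neutrophil sums overlapped between all groups. The macrophage sums did not overlap between POL5551 and 2 days of G-CSF, but narrowly, at no more than 21.3 against no less than 21.8. The part of such cells in the levels of Itgb2 was not tested.

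**Figure D1:**
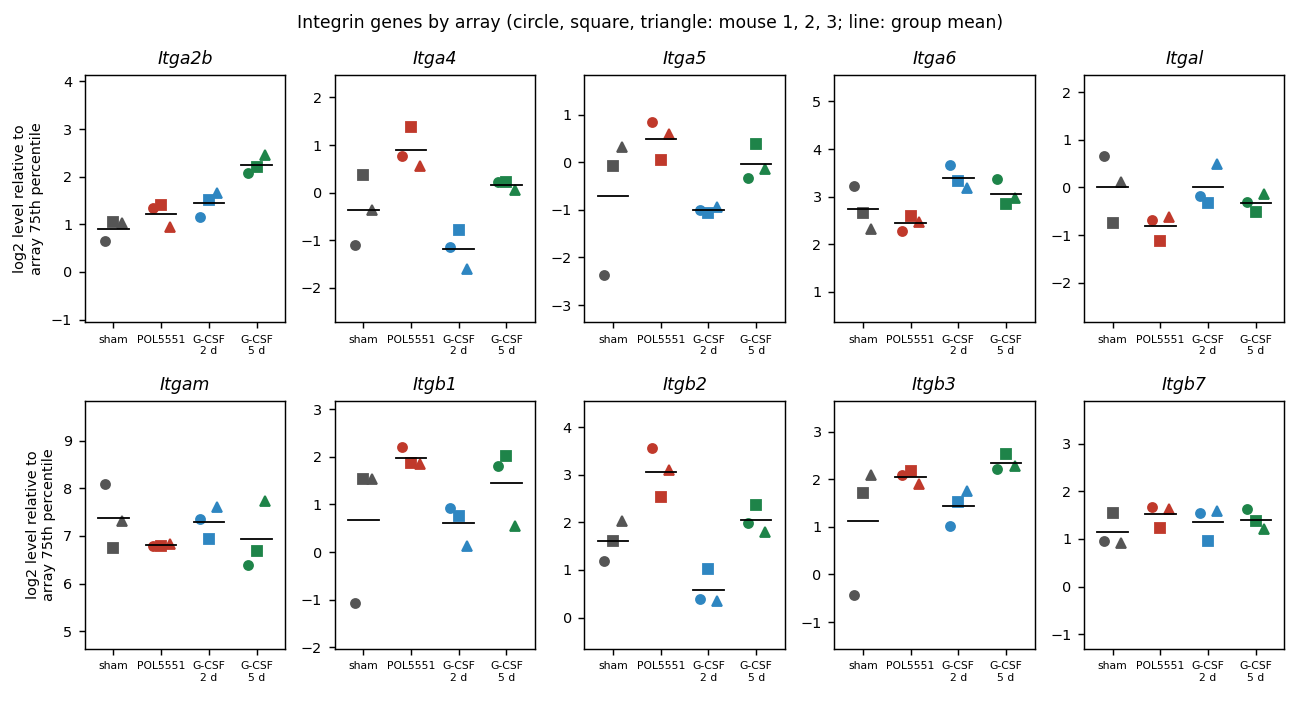
Levels of the 10 integrin genes on each of the 12 arrays, as log2 signal relative to the array's 75th percentile, on axes of equal span. Circles, squares and triangles are mice 1, 2 and 3 of a group and lines are group means. Itgb2 separates POL5551 from 2 days of G-CSF, Itga2b is highest in the 5-day mice, and sham mouse 1 lies far below the other sham mice for Itga5, Itgb1 and Itgb3.

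The alpha4 chain Itga4, which pairs with beta1 or beta7, was the second gene called. Its brightest probe lies at chr2:79173193-79173252 (plus strand), 9754 bases into NM_010576, and begins as follows. Beside it stands a probe that crosses a junction of the same transcript at chr2:79153985-79155115 (plus strand), shown because it is tied to the spliced message.
Itga4 brightest probe: gtgtgtggaatgcattataaagatctaaca
Itga4 junction probe: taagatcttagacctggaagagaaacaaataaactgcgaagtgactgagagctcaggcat

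On the brightest probe Itga4 stood at -1.09, 0.38 and -0.36 in sham, at 0.76, 1.37 and 0.56 after POL5551, at -1.14, -0.78 and -1.61 after 2 days of G-CSF, and at 0.22, 0.22 and 0.05 after 5 days. The POL5551 mice were above all other mice, and the 2-day mice overlapped with sham through sham mouse 1. Itga4 was 2.07 higher after POL5551 than after 2 days of G-CSF (SE 0.405, adjusted p = 0.0135).

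That call was lost without the first 2-day mouse or the first POL5551 mouse, with the highest adjusted p at 0.0612. It was also lost with the mean over all tested Itga4 probes (1.44, adjusted p = 0.061) and with the covariate of probes not used in blood (1.14, adjusted p = 0.599). Against sham, Itga4 was 1.25 higher after POL5551 (SE 0.405, adjusted p = 0.0838) and 0.89 higher without sham mouse 1 (adjusted p = 0.246). The slides that held both groups gave 1.85 and 1.36. After G-CSF the differences from sham were -0.82 at 2 days (SE 0.405, adjusted p = 0.577) and 0.52 at 5 days (SE 0.405, adjusted p = 0.615), and the 5-day mice were 1.34 above the 2-day mice without overlap (SE 0.405, adjusted p = 0.25).

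Of the 6 Itga4 probes only the brightest and the junction probe are designed on NM_010576, and the rest on other transcripts. All 6 lay above 0 for POL5551 against sham, from 0.17 to 1.95, and none was called. The junction probe was dim, well above background on 1 of 3 sham arrays, 2 of 3 after POL5551, none after 2 days of G-CSF and 2 of 3 after 5 days. Its measured difference of 3.24 between POL5551 and 2 days of G-CSF (adjusted p = 0.0275 in the fit of every probe) therefore has a 2-day side that lies at background. The 3 probes above background on all arrays did not move together: beside the brightest, the other 2, on other transcripts, gave -0.10 and -0.19 in that comparison.

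Itgb7, the second partner of alpha4, varied little. It stood at 0.95, 1.54 and 0.92 in sham, at 1.68, 1.24 and 1.63 after POL5551, at 1.54, 0.95 and 1.58 after 2 days of G-CSF, and at 1.62, 1.38 and 1.20 after 5 days, so that all groups overlapped. The difference from sham was 0.38 after POL5551 (SE 0.314, 95% interval -0.31 to 1.07) and 0.27 after 5 days of G-CSF (SE 0.314, 95% interval -0.43 to 0.96).

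Itgb1, the common beta chain of the matrix receptors, stood on its brightest probe (chr8:131257001-131257060, plus strand) at -1.06, 1.54 and 1.54 in sham, at 2.21, 1.88 and 1.85 after POL5551, at 0.93, 0.76 and 0.13 after 2 days of G-CSF, and at 1.81, 2.01 and 0.54 after 5 days. Sham mouse 1 was the lowest of the 12 arrays, far below the other sham mice. The difference between POL5551 and sham was 1.30 (SE 0.652, adjusted p = 0.166) with that mouse and 0.44 without it (adjusted p = 0.571). On the slide of sham mouse 1 it was 3.26 and on the second slide 0.34. Between POL5551 and 2 days of G-CSF it was 1.37 (SE 0.652, adjusted p = 0.114), without overlap. The junction probe of the usual tail, whose sequence is given above, showed no such low value for sham mouse 1, as its sham levels spanned 0.51 to 0.75. Its differences were 1.09 against sham (adjusted p = 0.247) and 1.44 against 2 days of G-CSF (adjusted p = 0.114).

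Itga5, the alpha chain of the fibronectin receptor (chr15:103175022-103175081, minus strand), stood at -2.36, -0.09 and 0.31 in sham, at 0.84, 0.05 and 0.60 after POL5551, at -1.01, -1.06 and -0.95 after 2 days of G-CSF, and at -0.34, 0.39 and -0.15 after 5 days. The 2-day mice were the tightest group and lay below all POL5551 and all 5-day mice. Itga5 was 1.51 higher after POL5551 than after 2 days of G-CSF (SE 0.583, adjusted p = 0.0657) and 1.21 higher than in sham (SE 0.583, adjusted p = 0.156). Without sham mouse 1 the latter was 0.39 (adjusted p = 0.504), and on the second slide it was -0.06.

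Itga6, the alpha chain of the laminin receptor, was the only one of the 3 called genes that was lower after POL5551. Its brightest probe lies at chr2:71694756-71694815 (plus strand) on NM_008397, 4289 bases into the transcript. A second probe, given for comparison, crosses a junction at chr2:71683882-71684032 (plus strand) and is assigned to both transcript variants.
Itga6 brightest probe: gagaatgagaacctgggaggtcttgttgtt
Itga6 junction probe: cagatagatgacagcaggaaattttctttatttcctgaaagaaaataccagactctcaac

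On the brightest probe Itga6 stood at 3.22, 2.66 and 2.33 in sham, at 2.27, 2.59 and 2.47 after POL5551, at 3.66, 3.33 and 3.19 after 2 days of G-CSF, and at 3.37, 2.84 and 2.97 after 5 days. The POL5551 mice lay below all G-CSF mice and overlapped the lower part of the sham range. Itga6 was -0.95 after POL5551 relative to 2 days of G-CSF (SE 0.316, adjusted p = 0.0432), when the median of all genes in this comparison was -0.65. The call held in 3 of the 12 fits that left out 1 array, and with median scaling the difference was -0.50 (adjusted p = 0.191). Against sham the difference was -0.29 (SE 0.316, adjusted p = 0.473).

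The 5 Itga6 probes disagreed. Between POL5551 and 2 days of G-CSF the brightest gave -0.95, 3 others gave between -0.04 and 0.27, and the junction probe gave 1.15 (adjusted p = 0.324), so the mean over the tested probes was 0.12. Against sham the probes ran from -0.31 to 2.14, and the highest 2 belonged to probes well above background on 11 of 12 arrays.

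**Figure D2:**
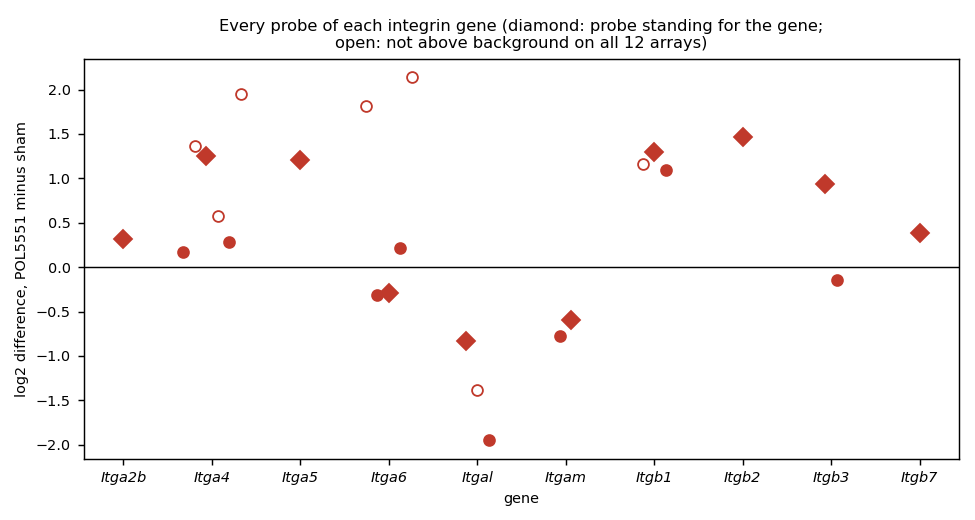
Log2 difference between POL5551 and sham for each of the 25 probes, by gene. Diamonds are the probes that stand for a gene, and open symbols are probes not well above background on all 12 arrays. Itga4 and Itgb1 probes all lie above 0, Itgal and Itgam probes below, and Itga6 probes run from -0.31 to 2.14.

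The megakaryocyte and platelet chain Itga2b, known as CD41 and also carried by part of the stem cell pool, had the highest levels after 5 days of G-CSF. Its only probe crosses a junction at chr11:102319453-102319661 (minus strand) on NM_010575 and is given whole.
Itga2b probe: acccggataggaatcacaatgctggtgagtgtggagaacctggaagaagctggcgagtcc

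Itga2b stood at 0.64, 1.05 and 1.02 in sham, at 1.34, 1.40 and 0.94 after POL5551, at 1.16, 1.51 and 1.66 after 2 days of G-CSF, and at 2.08, 2.20 and 2.45 after 5 days. The 5-day mice lay above all 9 other mice, and the 2-day mice lay above all sham mice. The difference of the 5-day group from sham was 1.34 (SE 0.288, 95% interval 0.71 to 1.97, adjusted p = 0.167), and 1.21 without sham mouse 1. The unadjusted p was 0.000665, and 22 of 33191 genes (0.0663%) were called in this comparison. It thus did not pass over all genes with limma. At 2 days the difference was 0.54 (SE 0.288, adjusted p = 0.605), and from 2 to 5 days it was 0.80 (SE 0.288, adjusted p = 0.258).

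After POL5551 Itga2b was 0.32 above sham (SE 0.288, adjusted p = 0.386), and 1.02 lower than after 5 days of G-CSF, a difference of -1.02 (SE 0.288, adjusted p = 0.314) without overlap. On the slide that held 1 mouse of each of these 2 groups it was -1.26.

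Its partner Itgb3 (chr11:104531672-104531731, plus strand) stood at -0.43, 1.71 and 2.08 in sham, at 2.08, 2.18 and 1.90 after POL5551, at 1.01, 1.53 and 1.75 after 2 days of G-CSF, and at 2.21, 2.52 and 2.27 after 5 days. Sham mouse 1 was again the lowest of the 12 arrays. The 5-day group was 1.22 above sham (SE 0.547, adjusted p = 0.442) and 0.44 without that mouse, and POL5551 was 0.94 above sham (SE 0.547, adjusted p = 0.215) and 0.16 without it. A second Itgb3 probe, at chr11:104528625-104528684, had no low value in sham (0.81 to 1.30) and gave -0.15 for POL5551 and 0.50 for 5 days of G-CSF against sham.

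Of 14 megakaryocyte genes listed, 13 were tested. Their summed signal ran from 16.6 to 32.6 in sham, from 32.6 to 34.8 after POL5551, from 22.8 to 28.1 after 2 days of G-CSF and from 27.6 to 32.8 after 5 days. Against sham, 7 of the 13 lay above 0 after 5 days, with a median of 0.07 against -0.13 for all genes. After POL5551 8 of the 13 did, with a median of 0.45 against -0.52. Without sham mouse 1 the medians of the 13 were -0.26 and -0.03. Selp, the P-selectin of platelets and endothelium, was the only one called against sham after 5 days, with a rise of 2.27 (adjusted p = 0.0356). In that comparison 0.0663% of all genes were called. Pf4, a platelet granule chemokine, gave -0.54 (adjusted p = 0.755). Gp1ba and Gata1 were called after POL5551, at 2.65 and 1.69 above sham (adjusted p = 0.0416 and 0.0435), where 2.28% of all genes were. None of these 3 was called without sham mouse 1. The part of such cells in the levels of Itga2b was not tested.

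Taking the 10 genes as a list, none was called in POL5551 against sham, where limma called 2.28% of all genes. The same held for G-CSF at 2 days (0.0331% of all genes) and 5 days (0.0663%) against sham, for 5 against 2 days (0%), and for POL5551 against 5 days (0.0603%). At an unadjusted p under 0.05 the list had 2, 1, 2, 3 and 2 genes in these comparisons, in that order, against 35%, 9.12%, 11.1%, 16.2% and 11.6% of all genes. In POL5551 against sham, Itgb2 was called when the fit kept probes bright on all 12 arrays, against 7.54% of the genes in that fit. Itga4 was called without sham mouse 2, against 7.54% of all genes, and Itgb2 without sham mouse 3, against 14.1%.

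Between POL5551 and 2 days of G-CSF 3 of the 10 genes were called, Itgb2 and Itga4 higher and Itga6 lower, against 30.6% of all genes. The share of the list was near that background. Of all genes, 5.87% were called higher and 24.7% lower. Without the first 2-day mouse none of the 10 was called, and 0.307% of all genes. Without the first POL5551 mouse 1 was (Itgb2), and 0.63% of all genes. Without sham mouse 1, which enters only through the pooled spread, 5 were called (Itga4, Itga5, Itga6, Itgb1 and Itgb2) against 52.6% of all genes. The F test without that mouse called Itga2b, Itga4, Itga5, Itga6 and Itgb2, 5 of the 10, against 23.1% of all genes. In POL5551 against sham none was called without it, against 0.214% of all genes.

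The medians of the 10 differences lay at 0.66 for POL5551 against sham, where that of all genes was -0.52, at -0.04 against 0.10 for 2 days of G-CSF, and at 0.48 against -0.13 for 5 days. Without sham mouse 1 they were 0.24 against -0.26, -0.17 against 0.21 and 0.16 against -0.04. Between POL5551 and 2 days of G-CSF the median was 0.39, against -0.65 for all genes. With median scaling the median of all genes moved to -0.12 in POL5551 against sham and to -0.20 in POL5551 against 2 days of G-CSF. The median of all genes includes dim genes, while the probes of the 10 were well above background on every array. Itgam enters the medians of the 10 on its repeat probe. Other lists named below also lay above it in POL5551 against sham. Ligands had 0.52, genes that switch integrins on 0.66, inhibitors 0.93 and adaptors 0.63, but other integrin chains -0.64. The distance from that median is thus not particular to the 10 genes. 

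Groups that did not overlap were counted in the same way. In POL5551 against sham 3 of the 10 genes were higher without overlap, where 10.6% of all genes were, and none was lower, where 25.9% were. After 2 days of G-CSF 1 gene was higher than in sham and 1 lower (6.63% and 5.35% of all genes), and after 5 days 2 were higher and none lower (4.41% and 8.16%). From 2 to 5 days 5 were higher and none lower (11.8% and 23.4%). POL5551 had 2 genes higher and 4 lower than 5 days of G-CSF (10.3% and 15.3%), and 5 higher and 3 lower than 2 days (21.9% and 43.6%). Itgam enters these counts on its repeat probe, where POL5551 and 5-day mice overlapped. On its other probe the POL5551 mice, at most at -0.34, lay below all 5-day mice, at least at 0.22.

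**Figure D3:**
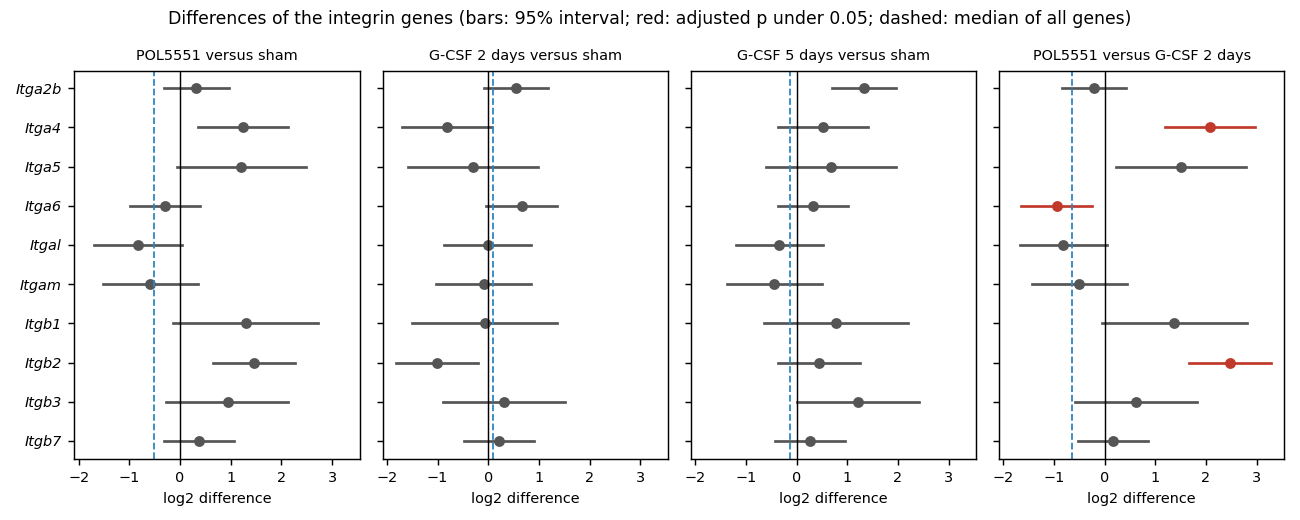
Log2 differences of the 10 integrin genes in 4 comparisons, with 95% intervals from limma. Red marks an adjusted p under 0.05, the solid line is 0 and the dashed line is the median of all genes tested. The only red points are Itga4, Itga6 and Itgb2 between POL5551 and 2 days of G-CSF.

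**Figure D4:**
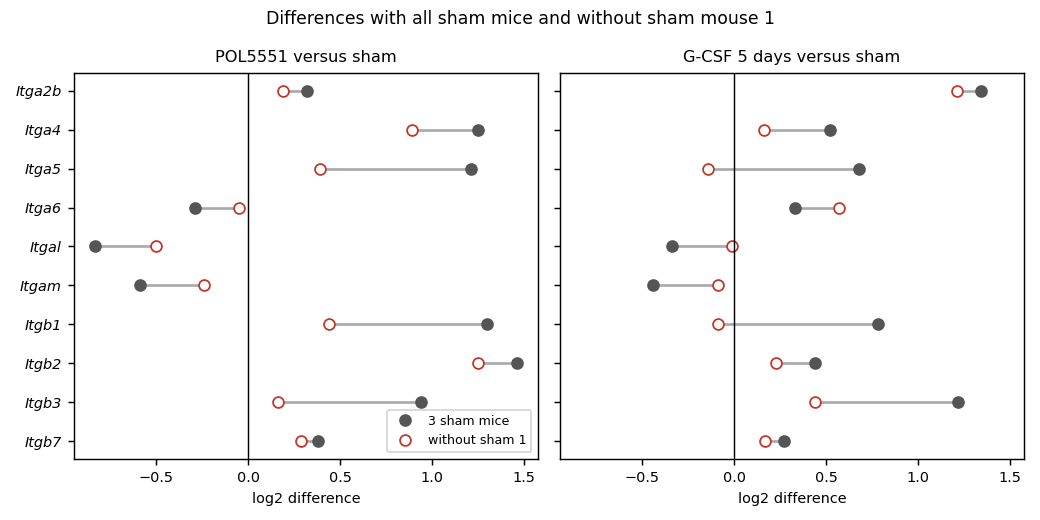
Log2 differences from sham with all 3 sham mice (filled) and without sham mouse 1 (open), for POL5551 and for 5 days of G-CSF. Itga5, Itgb1 and Itgb3 move most, while Itgb2 after POL5551 goes from 1.46 to 1.25 and Itga2b after 5 days of G-CSF from 1.34 to 1.21.

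Chains that form 1 receptor were compared over the 12 arrays, which come from 4 groups and differ in the level of probes not used in blood, so the values describe these arrays only. Of 7 pairs, Itga5 and Itgb1 had a Pearson r of 0.903 and a Spearman rho of 0.841 (permutation p 0.00064 and 0.00128, adjusted over the pairs 0.00448 and 0.00623), with r of 0.749 without the 2 arrays farthest from the median of Itga5. Itga4 and Itgb1 had 0.765 and 0.825 (permutation p 0.0038 and 0.00178, adjusted 0.0119 and 0.00623), and 0.775 without 2 arrays. Itga2b and Itgb3 had 0.645 and 0.669 (permutation p 0.00508 and 0.02, adjusted 0.0119 and 0.0467), and 0.59 without 2 arrays. By contrast Itgal and Itgb2 had -0.632 and -0.601 (permutation p 0.0269 and 0.0426, adjusted 0.0471 and 0.073), and -0.486 without 2 arrays. For the other 3 pairs the adjusted p was above 0.05. Itga6 and Itgb1 had -0.554 and -0.578 (permutation p 0.0608 and 0.0522, adjusted 0.0851 and 0.073), and -0.536 without 2 arrays. Itgam and Itgb2 had -0.534 and -0.525 (permutation p 0.073 and 0.0814, adjusted 0.0852 and 0.095), and -0.618 without 2 arrays. Itga4 and Itgb7 had 0.25 and 0.373 (permutation p 0.427 and 0.231), and 0.679 without 2 arrays. The permutations move arrays across groups, so their p-values also take in differences between groups. Without sham mouse 1, Pearson r was 0.795 for Itga5 and Itgb1, 0.803 for Itga4 and Itgb1, and 0.547 for Itga2b and Itgb3. It was -0.643 for Itgal and Itgb2, -0.596 for Itga6 and Itgb1, -0.527 for Itgam and Itgb2, and 0.117 for Itga4 and Itgb7. Alpha and beta chains outside these 7 pairs also reached large values. Pearson r was 0.861 for Itga4 and Itgb2 and 0.849 for Itga5 and Itgb3. It was -0.878 for Itgam and Itgb1 and -0.827 for Itgal and Itgb1. All correlations of Itgam given here are those of its repeat probe. Other such values were small, as 0.0265 for Itga2b and Itgb2. Large values of either sign were thus not particular to chains that form 1 receptor.

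The genes whose levels most resembled those of the 3 chosen integrins over the 12 arrays were taken from 17393 genes above background on all arrays. For Itga2b they were Ffar2 (r = 0.867), Csf2rb2 (0.861) and Sh2d5 (0.861), and no gene exceeded 0.9. For Itgb2 they were Mphosph10 (0.958), Cacul1 (0.957) and Dcun1d1 (0.948), among 49 genes over 0.9. For Itga4 they were Map2k4 (0.979), Ttf2 (0.976) and Creb1 (0.976), among 269.

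The remaining genes of the integrin system gave calls only between POL5551 and 2 days of G-CSF. Of 16 other integrin chains 3 were called, all lower after POL5551. These were Itgav, the alphaV chain of vitronectin receptors, at -1.98 (adjusted p = 0.0134), Itgax, the CD11c chain that also pairs with beta2, at -1.46 (adjusted p = 0.0148), and Itga7, a laminin receptor chain, at -2.26 (adjusted p = 0.0402). Their median difference was -0.78, near the -0.65 of all genes, whereas the 10 integrins above had 0.39.

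Of 19 ligands tested, Icam4 was called higher (1.51, adjusted p = 0.0304), and Fgb, the beta chain of fibrinogen, and Lama4, a laminin chain, were called lower (-2.25 and -1.45, adjusted p = 0.0161 and 0.0222). Against sham no ligand was called after POL5551. Among ligands whose probe was bright on all 12 arrays, Icam2 had the largest positive difference there (1.53, adjusted p = 0.13) and Fgb the largest negative one (-1.74, adjusted p = 0.0703).

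Among 16 genes that switch integrins on, Rap1a, the small GTPase that recruits talin, and Rassf5, its effector, were called higher (1.11 and 1.36, adjusted p = 0.0253 and 0.0333), and none lower. Tln1, the talin of blood cells, was at 1.43 (adjusted p = 0.0771) against 2 days of G-CSF and 1.68 (adjusted p = 0.0944) against sham. Cyth1, an exchange factor that binds the beta2 tail, was at 2.08 against sham (adjusted p = 0.0997). Of 8 inhibitors Rasa3, which restrains Rap1, was called higher (1.47, adjusted p = 0.0486), while Flna, the filamin that competes with talin, was at 1.04 (adjusted p = 0.129).

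Of 26 adaptor and signalling genes 4 were called in each direction. Rac2, the haematopoietic Rac GTPase, Rhoa, Actn4 and Tns1 were higher, by 1.00 (Tns1) to 1.35 (Rhoa), and Vcl (vinculin), Bcar1, Parva and Tns3 were lower, with differences of -2.79, -2.27, -1.68 and -4.02. The adjusted p of these 8 ran from 0.0136 for Vcl to 0.0488 for Tns1. The lists' medians in this comparison were 0.42 for ligands, 0.71 for activators, 0.83 for inhibitors and 0.61 for adaptors. These calls come from the comparison that called 30.6% of all genes, and that called 0 with the covariate of probes not used in blood.

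Genes of marrow stroma and endothelium varied between arrays and are given because such cells carry matrix integrins and their ligands. The summed signal of the 13 genes ran from 6.05 to 8.45 in sham, from 16.8 to 50.3 after POL5551, from 7.78 to 38.8 after 2 days of G-CSF and from 12 to 37.9 after 5 days. Cxcl12 lay between -1.54 and -0.48 in sham and between 1.45 and 3.16 after POL5551, and the adipocyte gene Adipoq between -2.04 and -0.27 and between 1.32 and 3.12. Between POL5551 and sham 9 of the 13 lay above 0, with a median of 1.35 against -0.52 for all genes, and 0.91 without sham mouse 1. In that comparison the pericyte receptor gene Pdgfrb was the only one called, at 3.62 above sham (adjusted p = 0.0335), and at 2.63 without sham mouse 1 (adjusted p = 0.0276). After G-CSF 11 of the 13 lay above 0 against sham at 2 days and 11 at 5 days, with medians of 0.75 and 1.07. Without sham mouse 1 these medians were 1.09 and 1.18, so the rise was not particular to POL5551. The endothelial gene Cdh5 was well above background on 3 of the 12 arrays. The part of such cells in the levels of the integrin genes was not tested.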

How the data were processed

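RNA of sorted stem cells from 12 mice was hybridized to single-colour Agilent arrays. Per the file headers, the signal is an intensity made by Agilent Feature Extraction 11.5.1.1, with background subtracted and no normalization between arrays. The authors' deposited table of values holds intensity for 49665 probes, with a median of 1080 in every column. How it was made is not given in the sources used here, and within 2 groups its columns follow the scanner files under other mouse numbers.

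Outlier spots were left out, and log2 signals were averaged per probe and reduced by the array's 75th percentile. Tests were limma's (3.58.1, R 4.3.3) on group means over all 12 arrays, two-sided and adjusted by Benjamini-Hochberg over all genes, with calls at 0.05. For 3 mice against 3, p = 0.1 is the smallest an exact test allows. Correlations used 100000 permutations in scipy, over all 12 arrays regardless of group. Pathway genes were named if called in any comparison or if among the 2 largest per direction against sham whose probe was bright on all 12 arrays. Only part of the latter are printed. Genes, lists and tests were chosen with earlier results of these data known. The fit was tested on simulated data.

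Mouse numbers mark different animals. Same-numbered mice of the sham and 2-day G-CSF groups correlated at 0.25, 0.22 and 0.15. With the number as a block no integrin gene was called between these groups, as without it, and 6 genes in all against 11.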

Additional observations from a re-analysis of the deposited data

How the results depend on the processing

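Other settings were tried for normalization, background, the filter on dim probes, the probe per gene, slide, mouse number, the arrays in the fit and the signal of probes not used in blood. The fits with another Itgam probe, the percentile over spots and every probe on its own were chosen after seeing the data. Over 930 values of the 10 genes in 6 comparisons, 59 changed sign, 27 of them with the covariate of probes not used in blood. Its slope is fitted within groups while the groups differ in that level, so it extrapolates. The fixed slide block could not be run for comparisons with the 2-day group.

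With the covariate, differences between POL5551 and sham became -0.01 for Itga2b, -0.67 for Itga5, 0.29 for Itga6, 0.51 for Itgam, -0.97 for Itgb1 and -0.84 for Itgb3. Between POL5551 and 2 days of G-CSF they became -0.60 for Itga5, 0.72 for Itgam, -1.17 for Itgb1, -1.35 for Itgb3 and -0.11 for Itgb7, and for 5 days of G-CSF against sham -0.27 for Itga5, 0.03 for Itgal, 0.11 for Itgam and -0.37 for Itgb1. The other 12 signs it changed lie in the 3 remaining comparisons, for differences the report does not print. Median scaling turned Itga6 to 0.11 against sham and Itga2b to 0.23 against 2 days of G-CSF. The mean over probes turned Itga6 to 0.71 and 0.12 in those comparisons. Itgam against sham became 0.01 with quantile normalization and with the authors' values, and 0.08 with normexp. Itgb7 against 2 days of G-CSF became -0.01 with quantile normalization. Leaving out single arrays moved Itga5 after 2 days of G-CSF between -1.12 and 0.22, Itgb1 after 5 days between -0.09 and 1.24, and Itgb7 between POL5551 and 2 days between -0.04 and 0.30. The causes were not tested.

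The count of integrin genes called in POL5551 against sham was 0, and 1 when the fit kept probes bright on all 12 arrays. Leaving out single arrays gave 0 to 1. Between POL5551 and 2 days of G-CSF it was 3, against 0 with the covariate and 5 with only the 2 groups in the fit, and 0 to 5 when single arrays were left out. The F test called 1 gene, 0 with quantile normalization, the authors' values, the replicate block or the covariate, 3 with probes bright on all arrays, and 0 to 5 without single arrays. In the other comparisons it was 0 under every setting run.

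Over all genes, POL5551 against sham gave 758 calls, 7.78% of them higher. It gave 90 (20% higher) with quantile normalization, 28 (21.4%) with normexp, 220 (23.6%) with median scaling and 62 (25.8%) with the authors' values. It gave 1897 with probes bright on all arrays, 181 with the replicate block, 63 with only the 2 groups, 0 with the covariate, and 60 to 4665 without single arrays. POL5551 against 2 days of G-CSF gave 10161 calls, 19.2% higher, and 5913 (30.8%), 7347 (34.7%), 8499 (49%) and 6086 (30.7%) in the same order, 16903 with only the 2 groups, 0 with the covariate and 102 to 17450 without single arrays. The mouse number paired no other groups by the rule used, and the replicate block ended the calls of Itga6 between POL5551 and 2 days of G-CSF (adjusted p = 0.0518) and of Itgb2 in the F test, and no other call of the 10 genes.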
